A study of Mus musculus with 200 samples.

Results

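The genes described here are *Stmn1*, *Stmn2*, *Stmn3*, *Stmn4*, *Tubb3*, *Elavl3*, *Elavl4*, *Gap43*, *Nefl* and *Nefm*, chosen by name as genes of the neuronal cytoskeleton and of neuronal differentiation. They are 10 of the 22033 genes in the deposited tables, and every one of them has a row there. Reads came from 3SEQ, which sequences the 3′ ends of poly(A) transcripts, of single whole mouse embryos collected at E11.5 without membranes or placenta. The crosses were made to measure how expression varies with the alleles an embryo carries, with the parent that gave them and with its stage. F1 embryos came from both reciprocal crosses of C57BL6/J (B6) and Castaneus (Cast), of which 8 had mothers of the B6 strain (B6 × Cast, litters 3 and 5) and 8 had mothers of the Cast strain (Cast × B6, litters 1 and 2). N2 embryos came from backcrosses to B6, 89 from B6 mothers and F1 fathers (B6 × F1) and 65 from F1 mothers and B6 fathers (F1 × B6). At an autosomal gene an F1 embryo is B6/Cast, and an N2 embryo is either B6/B6 or B6/Cast. Stage was given as the somite number, which ran from 42 to 57 in the 147 N2 embryos that had one.

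Neurons that leave the cell cycle build long microtubules and intermediate filaments as their axons grow. Stathmins (*Stmn1* to *Stmn4*) bind tubulin and destabilise microtubules, *Tubb3* encodes the neuronal class of β-tubulin, and *Nefl* and *Nefm* encode the light and medium chains of neurofilaments. *Elavl3* and *Elavl4* encode neuronal RNA-binding proteins that act on mRNA stability and splicing, and *Gap43* encodes a membrane protein of growth cones. In the embryo these transcripts come mainly from the neural tube, the brain and the peripheral ganglia. Since whole embryos were sequenced, fewer neurons and less RNA per neuron cannot be told apart.

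Between 15703888 and 38234229 reads on genes were counted per F1 embryo, and between 245220 and 5370322 per N2 embryo, and 13 N2 embryos lay under 1000000. Levels are given as reads per 1000000 reads on genes (RPM), and litters, lanes and flowcells as labelled. Lanes A to N nearly split the mothers, since lanes A, B, F, H, I, J, K and N held only embryos of B6 mothers and lane M held 1 of them. Lane J stood apart for several of the genes, and in the F1 embryos each stage was 1 litter. The libraries of Cast × B6 litter 2 came from the HiSeq alone, while those of the other litters came from both sequencers.

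The start regions of 4 of the 10 genes (*Stmn3*, *Tubb3*, *Elavl3* and *Elavl4*) were found in RefSeq's table for GRCm38.p6. The regions of *Stmn3*, which rose with somite number, and of *Tubb3*, whose alleles differed, are printed below from 250 bases before the start to 50 after it, 5′ to 3′ on the strand of the gene. Capitals mark the E-box sequence CAGATG, the related palindrome CAGCTG, and the GC box sequence GGGCGG, each on either strand. The region of *Stmn3* lies at chr2:181314451-181314750 on the minus strand and that of *Tubb3* at chr8:123411303-123411602 on the plus strand.
Stmn3: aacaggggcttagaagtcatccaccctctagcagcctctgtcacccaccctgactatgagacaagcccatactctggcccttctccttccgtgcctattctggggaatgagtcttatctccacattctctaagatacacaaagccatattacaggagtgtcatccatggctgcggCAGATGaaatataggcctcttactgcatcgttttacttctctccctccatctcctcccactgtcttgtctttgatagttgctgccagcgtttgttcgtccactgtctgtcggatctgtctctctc
Tubb3: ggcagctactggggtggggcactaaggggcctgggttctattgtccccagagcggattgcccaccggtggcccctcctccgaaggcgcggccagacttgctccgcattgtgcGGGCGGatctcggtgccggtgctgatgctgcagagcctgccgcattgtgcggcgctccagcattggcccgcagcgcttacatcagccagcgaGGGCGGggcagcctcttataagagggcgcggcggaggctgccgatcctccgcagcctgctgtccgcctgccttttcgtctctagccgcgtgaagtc
CAGATG, a sequence of the E-box kind that proneural transcription factors bind, stood once before the start of *Stmn3*, 75 bases upstream, and in 17.2% of all 32851 start regions in the table. The GC box GGGCGG stood in the region of *Tubb3* 138 and 46 bases upstream of the start, and in 35.7% of all regions. CAGCTG was in neither region and in 16.3% of all. *Elavl4*, whose slope did not pass, held CAGATG in 3 of its 4 start regions and CAGCTG in 2, and these 2 regions overlap and share both sites. *Elavl3*, which did not pass either, held CAGCTG 43 bases upstream. The region of *Tubb3* was 67.3% G and C and held 26 CpG, against a median of 52.7% and 7 CpG over all regions, and that of *Stmn3* was 49.7% G and C with 6 CpG. The starts of *Stmn1*, *Stmn2*, *Stmn4*, *Gap43*, *Nefl* and *Nefm* are not shown.

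In mm9, the build of the deposited files, the stathmin genes lie on chromosome 4 from 134024235 to 134029758 (*Stmn1*), chromosome 3 from 8509527 to 8561604 (*Stmn2*), chromosome 2 from 181041164 to 181049205 (*Stmn3*) and chromosome 14 from 66963133 to 66980517 (*Stmn4*) in the GENCODE annotation. *Tubb3* lies on chromosome 8 from 125935324 to 125945915, inside a readthrough gene (*Gm20388*) of the same strand. *Elavl3* lies on chromosome 9 from 21819449 to 21856467, *Elavl4* on chromosome 4 from 109876327 to 110024514, and *Gap43* on chromosome 16 from 42248555 to 42340764. *Nefl* (chromosome 14, 68701920 to 68707152, plus strand) and *Nefm* (68700647 to 68742903, minus strand) overlap in this annotation on opposite strands. Whether strand was used in counting was not given in the sources used here, so reads of *Nefl* and *Nefm* may not be fully separated. Reads were counted on RefSeq exons, and whether exons of *Nefl* and *Nefm* overlap there was not tested.

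The first comparison was with stage within the N2 embryos. *Stmn3* and *Stmn4* rose with somite number, each by 1.51-fold per 10 somites, and none of the members tested fell. In the 39 embryos of 42 to 46 somites, *Stmn4* had 60.2 RPM at the lowest, a median of 128 RPM and 249 RPM at the highest. In the 40 embryos of 47 to 49 somites its median was 148 RPM (111 to 314), in the 54 embryos of 50 to 52 somites 172 RPM (106 to 323), and in the 14 embryos of 53 to 57 somites 210 RPM (148 to 515). The median of *Stmn4* was thus higher in each later range, and the ranges overlapped throughout. *Stmn3* went from a median of 341 RPM (98.0 to 599.9) in the earliest range to 352 RPM (49.6 to 578), 400.1 RPM (90.8 to 755) and 465 RPM (151 to 660.4) in the later ones.

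The slope on somite number was estimated by edgeR's quasi-likelihood test with lane and mother as terms. It was 0.060 ± 0.014 (log2 per somite, SE) for *Stmn3*, with an adjusted p = 0.000711, and 0.059 ± 0.011 for *Stmn4*, with an adjusted p = 9.66e-06 (147 embryos). Of all 10040 genes tested, 9.99% passed the threshold of 0.05 in either direction and 5.90% were higher with somite number. Of the 9 members that passed the filter of 5 RPM, 2 passed the test and both were higher. The median slope of these 9 members was 0.026, against -0.0020 over all genes tested. *Stmn3* rose within 13 of 14 lanes and *Stmn4* within 12 of 14, by the sign of Spearman's rho in each lane. The median gene did so in 7.

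The other stathmin measured, *Stmn2*, had a slope of 0.026 ± 0.011 that did not pass (adjusted p = 0.139), and *Tubb3* one of 0.051 ± 0.021 (adjusted p = 0.110). The RNA-binding genes had slopes of 0.016 ± 0.011 (*Elavl3*, adjusted p = 0.427) and 0.032 ± 0.024 (*Elavl4*, adjusted p = 0.475), and *Gap43* had 0.0095 ± 0.019 (adjusted p = 0.843). The neurofilament genes had slopes below zero, -0.015 ± 0.022 for *Nefl* (adjusted p = 0.762) and -0.024 ± 0.020 for *Nefm* (adjusted p = 0.526). A fall of *Nefl* by more than 0.057 per somite or a rise by more than 0.027 lies outside its 95% interval. *Stmn1* had 3 reads in the median N2 embryo (1.58 RPM) and none in 11 of 154, and so was under the filter.

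**Figure D1:**
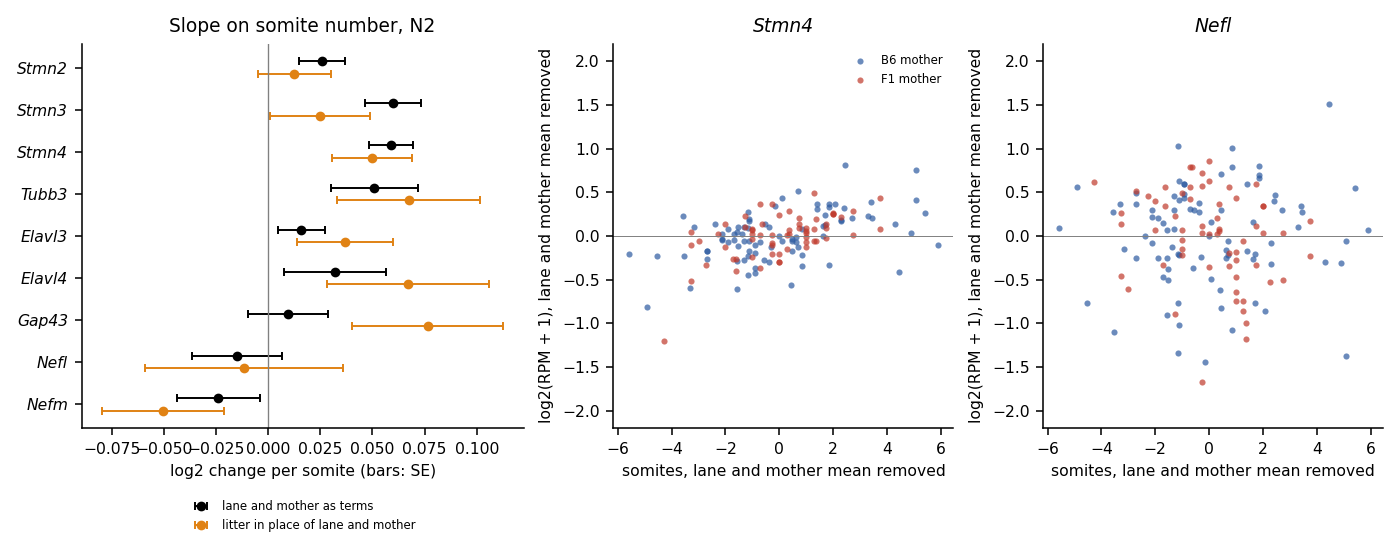
Left, log2 change per somite of the 9 members tested in 147 N2 embryos, with lane and mother as terms (black) or with litter in their place (orange), and bars of 1 SE. Middle and right, log2(RPM + 1) of *Stmn4* and *Nefl* in each embryo against somite number, both with lane and mother means removed, where the points of *Stmn4* climb (slope 0.059) and those of *Nefl* do not (slope -0.015).

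Embryos of a litter share a mother, and when litter replaced lane and mother in the fit neither gene passed. The slope was then 0.025 for *Stmn3* (adjusted p = 0.769) and 0.050 for *Stmn4* (adjusted p = 0.199), and 164 genes in all were called. With litter as a random block in limma voom both were called, at 0.059 (adjusted p = 0.00580) and 0.057 (adjusted p = 0.000124). *Stmn3* also missed the threshold in embryos of F1 mothers alone (0.048, adjusted p = 0.226) and in flowcell 1 alone (0.038, adjusted p = 0.131), in which *Tubb3* (0.078, adjusted p = 0.0375) and *Nefl* (-0.070, adjusted p = 0.0278) passed. Without lane D, *Tubb3* passed as well (0.062, adjusted p = 0.0398).

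Spearman's correlation over the same embryos, the test of the study's methods, models neither lane nor litter. It called 21.9% of 10040 genes and 3 of the 9 members, *Stmn4* (rho = 0.51, adjusted p = 3.38e-09), *Tubb3* (rho = 0.37, adjusted p = 7.89e-05) and *Stmn3* (rho = 0.28, adjusted p = 0.00631). With lane regressed out of the ranks 3 members were called too, and over the means of 29 litters none was. *Stmn3* missed the threshold in embryos of B6 mothers alone (rho = 0.24, adjusted p = 0.0547) and after TMM scaling (rho = 0.20, adjusted p = 0.0589), and *Nefm* passed as lower with B6 mothers alone (rho = -0.29, adjusted p = 0.0179). For *Stmn2* and *Elavl4* the direction depended on the mother. *Stmn2* had rho = -0.35 in embryos of B6 mothers (adjusted p = 0.00360) and 0.43 in those of F1 mothers (adjusted p = 0.00658), and *Elavl4* had -0.28 (adjusted p = 0.0207) and 0.33 (adjusted p = 0.0432). With lane in the edgeR fit, the difference in slope between the mothers was -0.011 ± 0.025 (F1 minus B6) for *Stmn2* and 0.013 ± 0.054 for *Elavl4*, far from the threshold. That interaction called 0.00996% of genes, 1 of 10040 (623 at an unadjusted p under 0.05), and 0 of 9 members. Its largest member value was that of *Nefl*, -0.11 ± 0.048 (unadjusted p = 0.0209, adjusted p = 0.771).

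Other genes of the nervous system were read from lists chosen with earlier results known. Among synaptic vesicle and transmission genes, 11 of 24 tested (45.8%) rose with somite number and none fell, beside the 9.99% of all genes called in either direction and the 5.90% that were higher. The steepest were *Slc32a1*, the vesicular transporter of GABA and glycine (0.11 ± 0.017), *Cplx1* (0.098 ± 0.020) and *Sv2a* (0.091 ± 0.019), and the shallowest called were *Vamp2* (0.029 ± 0.0096), *Nsg1* (0.036 ± 0.0080) and *Gnao1* (0.048 ± 0.011). Of 26 other cytoskeletal genes 3 rose (11.5%, near the share of all genes called), the peripheral intermediate filament gene *Prph* (0.12 ± 0.014), the tau gene *Mapt* (0.092 ± 0.012) and *Tubb2a* (0.042 ± 0.010). Of 11 other neuronal RNA-binding genes 3 rose (27.3%), *Rbfox1* (0.11 ± 0.023), *Celf5* (0.061 ± 0.015) and *Rbfox3* (0.044 ± 0.014). Of 15 genes of neural progenitors 3 fell, *Nes* by 0.080 ± 0.010, *Sox2* by 0.075 ± 0.024 and *Dll3* by 0.064 ± 0.020, and none rose. With litter in place of lane and mother, 5 of these 15 genes passed (*Prph*, *Mapt*, *Rbfox1*, *Gnao1* and *Nes*). With litter as a random block *Vamp2* (adjusted p = 0.0652) and *Rbfox3* (adjusted p = 0.0504) missed the threshold, as they did with no filter on low counts (0.157 and 0.0620). Without 1 lane the call of *Vamp2* was lost in 8 of 14 fits (lanes B, C, E, F, G, H, K and M, adjusted p = 0.0701 to 0.198), that of *Rbfox3* in 4 (lanes H to K, up to 0.0940), that of *Dll3* in 3 (lanes D, I and K, up to 0.158) and that of *Sox2* in 3 (lanes B, G and K, up to 0.187). The median slope of these lists was 0.050, 0.013, 0.031 and -0.035 in that order.

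Markers of other tissues moved over the same stages. All 8 of 8 fetal liver genes tested rose (median slope 0.13), as did 6 of 10 muscle genes, 3 of 9 erythroid genes, of which 2 fell, and 2 of 10 genes of cartilage and mesenchyme. Of 4 glial genes 2 rose and 1 fell, and of 16 genes of sensory, motor and autonomic neurons 1 rose and 1 fell (12.5% called, near the 9.99% of all genes). The summed level of the erythroid list ranged from 28851 to 186630 RPM over N2 embryos and that of the liver list from 226 to 3856 RPM. Their part in the slopes of the members was not tested. All 8 trophoblast genes in the table were at 0 in the median N2 embryo.

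F1 embryos were sequenced more deeply, and their litters differed in stage. In Cast × B6, litter 2 (46 to 48 somites) was compared with litter 1 (41 to 43 somites), and in B6 × Cast litter 3 (58 to 63 somites) with litter 5 (48 to 50 somites). In the 4 embryos of Cast × B6 litter 1 *Stmn4* had 56.2, 80.4, 73.3 and 76.2 RPM, and in the 4 of litter 2 144, 120, 154 and 173 RPM. The groups did not overlap, and the difference of 0.99 ± 0.13 (log2, SE, edgeR) was a rise of 1.99-fold with an adjusted p = 0.000126. In B6 × Cast, *Stmn4* had 143, 127, 138, 156 and 149 RPM in litter 5 and 161, 152 and 139 RPM in litter 3. These overlapped, with means of 143 and 150.3 RPM and a difference of -0.045 ± 0.14 after TMM scaling (edgeR adjusted p = 0.848), the sign of which is opposite to that of the means.

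*Stmn1*, the stathmin of proliferating cells as well as neurons, was lower in the later litter of both crosses. It had 14.6, 22.2, 26.1 and 17.6 RPM in Cast × B6 litter 1 and 12.2, 11.7, 9.09 and 11.0 RPM in litter 2, without overlap (log2 difference -0.94 ± 0.17, edgeR adjusted p = 0.000725). In B6 × Cast it had 13.1, 11.7, 12.6, 8.18 and 12.2 RPM in litter 5 and 6.49, 6.39 and 5.42 RPM in litter 3, again without overlap (-1.03 ± 0.18, edgeR adjusted p = 0.00194). These levels rest on 141 to 899 reads per embryo, the fewest of any member, and the authors had discarded reads with a nearly equal second-best hit. *Stmn2* was 393 to 479 RPM in litter 5 and 555 to 631 RPM in litter 3 of B6 × Cast, which did not overlap but missed the threshold (0.33 ± 0.12, edgeR adjusted p = 0.0762). *Stmn3* rose in Cast × B6, from 249, 340.3, 329 and 323 RPM to 482, 368, 446 and 383 RPM (0.37 ± 0.12, edgeR adjusted p = 0.0281).

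*Tubb3* was lower in Cast × B6 litter 2, with 223, 168, 201 and 157 RPM against 173, 283, 322 and 299.6 RPM in litter 1, of which 1 embryo lay within the range of litter 2 (-0.58 ± 0.16, edgeR adjusted p = 0.0116). *Elavl4* rose in B6 × Cast, from 47.9, 38, 35.5, 37.6 and 40.8 RPM to 60.1, 65.9 and 60.9 RPM without overlap (0.52 ± 0.13, edgeR adjusted p = 0.0131). *Gap43* did not pass in either cross, with 65.7 to 115 RPM in litter 5 and 108 to 172 RPM in litter 3 of B6 × Cast (0.53 ± 0.19, edgeR adjusted p = 0.0721). *Nefm* rose in B6 × Cast, from 38.5 to 64.2 RPM to 72.9 to 94.8 RPM (0.53 ± 0.17, edgeR adjusted p = 0.0430), and *Nefl* in Cast × B6, from 21.5 to 28.1 RPM to 29.8 to 40.7 RPM (0.46 ± 0.17, edgeR adjusted p = 0.0396). Neither of these pairs of litters overlapped. In Cast × B6 *Nefm* had 80.9 to 89.6 RPM in litter 1 and 49.2 to 94.4 RPM in litter 2, which overlapped (-0.38 ± 0.16, edgeR adjusted p = 0.0858). Without embryo 3 of litter 2 it passed there as lower (-0.52, edgeR adjusted p = 0.0196).

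Of the 9728 genes tested, 35.8% were called between the Cast × B6 litters, and 5 of the 10 members (*Stmn3*, *Stmn4* and *Nefl* higher, *Stmn1* and *Tubb3* lower). Between the B6 × Cast litters 16.0% of genes were called and 3 of 10 members (*Elavl4* and *Nefm* higher, *Stmn1* lower). The median member differed by 0.18 and 0.17 in these contrasts, against -0.022 and 0.039 over all genes. When each of the 16 embryos was left out in turn, *Stmn1*, *Stmn4* and *Tubb3* kept their calls. *Stmn3* lost its call without embryos 1 or 4 of Cast × B6 litter 1 or embryos 2 or 5 of litter 2 (edgeR adjusted p up to 0.0896), and *Elavl4* without embryos 3 or 4 of B6 × Cast litter 3 (up to 0.0665). *Nefl* lost its call in 7 of 16 such fits, with the highest adjusted p of 0.121 without embryo 6 of Cast × B6 litter 2, and *Nefm* in 8 of 16, with 0.183 without embryo 3 of B6 × Cast litter 3. *Gap43* passed in 3 of them (adjusted p = 0.0404 to 0.0486). Since each stage was 1 litter, stage and litter cannot be told apart in these contrasts. In Cast × B6, sequencer cannot be told apart from them either.

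**Figure D2:**
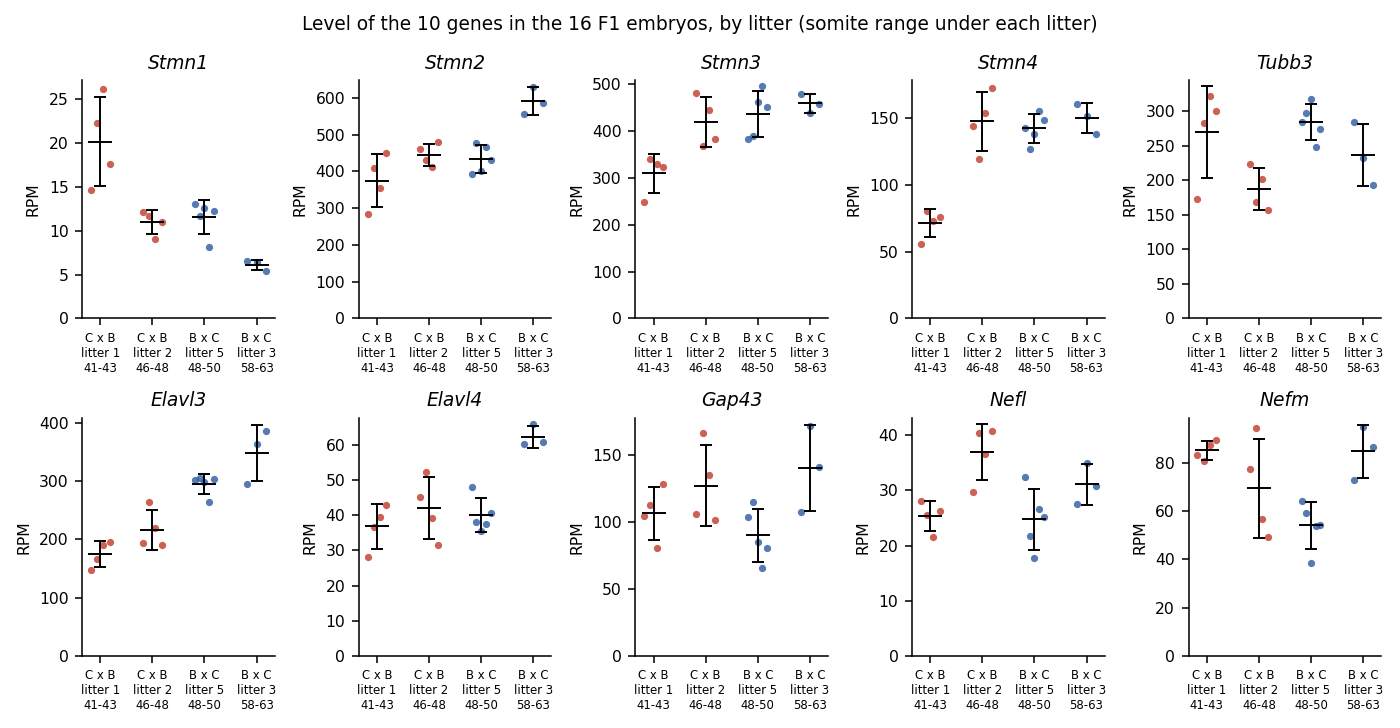
RPM (vertical axis, from 0) of the 10 genes in the 16 F1 embryos, by litter in order of stage, with Cast × B6 in red and B6 × Cast in blue, and the mean and SD in black. *Stmn4* of Cast × B6 litter 1 (56.2 to 80.4 RPM) lies below the other 3 litters, and *Stmn1* is lowest in litter 3 of B6 × Cast (5.42 to 6.49 RPM).

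Cast × B6 litter 2 and B6 × Cast litter 5 were of similar stage and reciprocal in cross. Between them 16.2% of genes were called, and 3 of 10 members. *Tubb3* was lower in the Cast × B6 litter (157 to 223 against 248 to 318 RPM, -0.63 ± 0.15, edgeR adjusted p = 0.0145) and so was *Elavl3* (190 to 264.3 against 263.9 to 305 RPM, -0.48 ± 0.089, edgeR adjusted p = 0.00366). *Nefl* was higher there (29.8 to 40.7 against 17.7 to 32.5 RPM, 0.54 ± 0.16, edgeR adjusted p = 0.0291). *Stmn2* differed by 0.0062 ± 0.11, *Stmn3* by -0.092 ± 0.12 and *Stmn4* by 0.023 ± 0.12, none of which passed. The call of *Nefl* was lost in 6 of 16 fits without 1 embryo (edgeR adjusted p up to 0.0809). The 95% interval for *Stmn4* reached from -0.22 to 0.27. Cross, litter and sequencer cannot be told apart here.

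Sequencing lane accounted for more of the spread of each of the 9 members tested than somite number did. Lane explained 84% of the variance of log2(RPM + 1) of *Nefl* over the N2 embryos, a share that 5.50% of genes reached, 70.1% for *Gap43*, 69.6% for *Elavl4* and 55.5% to 61% for the others tested. The median gene had 58.1%. Somite number added 11.0% for *Stmn4* and 6.47% for *Stmn3* beyond lane and mother, against 0.287% for the median gene and 0.0163% for *Nefl*. Taken alone, somite number explained 23.6% for *Stmn4*, 12.9% for *Tubb3* and at most 4.16% for the other members tested, against 1.57% for the median gene. Lane means ran from 45.2 to 51.6 somites, so the share of lane may hold part of that of stage.

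*Nefl* had lane medians of 19.4 to 40.1 RPM in lanes A to I and of 188 to 247 RPM in lanes J to N. *Nefm* had 25.5 to 51.1 RPM and 73.3 to 141 RPM, *Gap43* 36.7 to 55.2 RPM and 98.0 to 177 RPM, and *Elavl4* 8.59 to 29 RPM and 52.4 to 74.8 RPM. *Elavl3* had 236 to 323 RPM and 325 to 771 RPM. For these 5 of the 9 members every lane of J to N lay above every lane of A to I, while 25.1% of the 10040 genes did so. The split of the lanes was chosen after the values were seen, falls within flowcell 2 (lanes H to N) and was given no test. In single F1 embryos *Nefl* had 17.7 to 40.7 RPM.

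Lane J, 11 embryos of B6 mothers, stood apart from the lanes beside it. Its medians were low for *Stmn2* (184 RPM) and *Stmn3* (162 RPM), the lowest of the 14 lanes in both, and were the highest for *Elavl3* (771 RPM), *Stmn4* (282 RPM) and *Tubb3* (316 RPM). Relative to the median of the other lanes these were 0.496 and 0.426 times for the first pair and 2.54, 1.82 and 2.12 times for the others. Such gaps were common, since 19.5% of genes were at least 2-fold lower and 23.1% at least 2-fold higher in lane J. Without lane J the slope on somite number was 0.050 for *Stmn3* (adjusted p = 0.00481) and 0.060 for *Stmn4* (adjusted p = 1.4e-05).

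**Figure D3:**
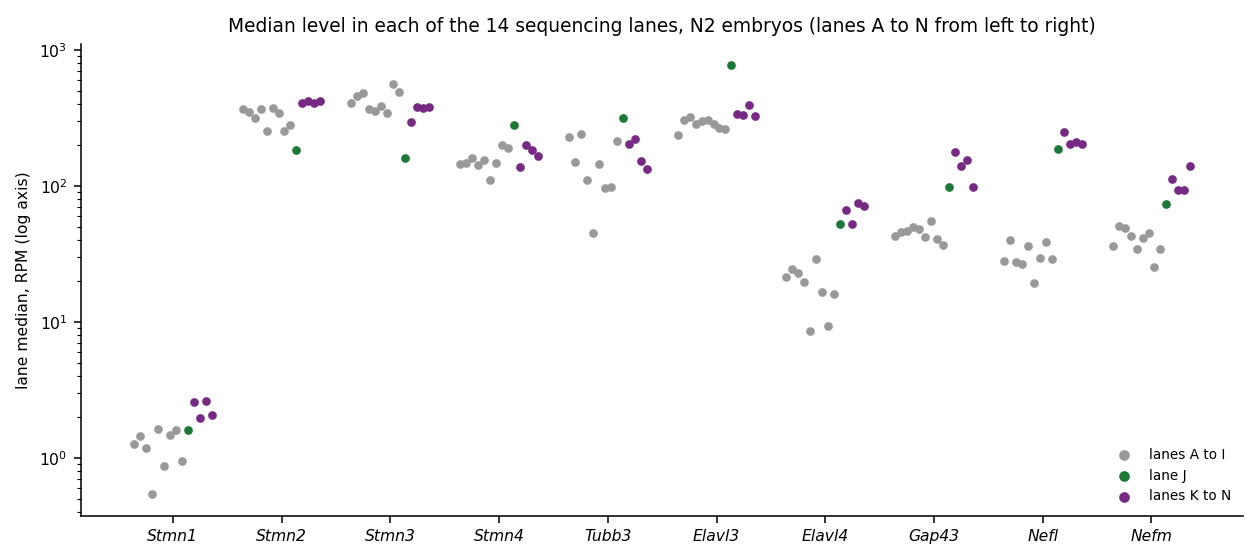
Median RPM (log axis) of each gene in each of 14 sequencing lanes of N2 embryos, lanes A to N from left to right. *Nefl* in lanes J to N (188 to 247 RPM, green and purple) lies above lanes A to I (19.4 to 40.1 RPM, grey), whereas *Stmn2* and *Stmn3* are lowest in lane J (184 and 162 RPM).

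Coexpression was described over the 147 N2 embryos after lane, mother and somite number had been regressed out of log2(RPM + 1). The 36 pairs of the 9 members had a median Spearman's rho of 0.17, with 27 above zero. Over all pairs of genes the median was 0.050, with 58.1% above zero, and 30.4% of them exceeded the members' median. After TMM scaling the members' median fell to 0.087, with 22 pairs above zero and 37.1% of all pairs exceeding it, and with litter regressed out in place of lane it was 0.10, which 41.4% of all pairs exceeded. The highest was *Nefl* with *Nefm* (0.61), whose overlapping annotation is given above, followed by *Elavl4* with *Gap43* (0.52), *Gap43* with *Nefl* (0.47), *Stmn2* with *Elavl4* (0.46) and *Elavl4* with *Nefm* (0.45). The lowest was *Tubb3* with *Nefl* (-0.32), and *Tubb3* with *Stmn3* was also below zero (-0.25). *Stmn4*, which rose with *Stmn3* over stages, had a rho of 0.19 with it and of -0.22 with *Nefm*. All pairs share libraries, depth and lanes.

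Of 3 pairs picked for Pearson's correlation, *Nefl* and *Nefm* had r = 0.69 (permutation p = 1e-05, the smallest that 100000 resamples can give, and 3e-05 after Benjamini-Hochberg adjustment) and rho = 0.61 (permutation p = 1e-05, adjusted 3e-05). Without the 2 embryos farthest from the median r was 0.64. *Stmn2* and *Gap43* had r = 0.26 (permutation p = 0.001, adjusted 0.0015) and rho = 0.23 (permutation p = 0.006, adjusted 0.009), with r = 0.17 without the 2 farthest. The permutations treat embryos of a litter as independent, and the rho of *Stmn2* and *Gap43* was 0.097 with litter in place of lane and 0.092 after TMM scaling. *Elavl3* and *Elavl4*, related RNA-binding genes, had r = 0.11 (permutation p = 0.2, adjusted 0.2) and rho = 0.081 (permutation p = 0.3, adjusted 0.3). Without the 2 farthest r was 0.14. Their rho was 0.29 with litter in place of lane and -0.075 after TMM scaling, whereas that of *Nefl* and *Nefm* was 0.62 and 0.58.

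**Figure D4:**
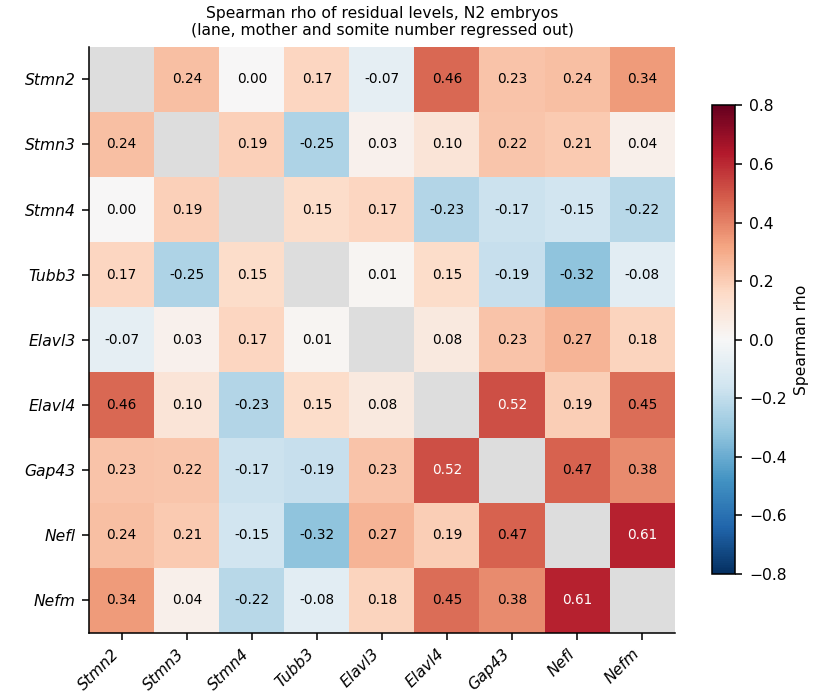
Spearman's rho (colour, and number in each square) between 9 of the genes over 147 N2 embryos after lane, mother and somite number were regressed out. The warm block from *Elavl4* to *Nefm* holds the highest value (0.61), and the square of *Tubb3* and *Nefl* the lowest (-0.32).

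Among 6044 genes of at least 20 RPM outside the members, the closest to each member by rho over these embryos were 1500012F01Rik for *Stmn2* (0.66), *Clta* for *Stmn3* (0.64), *Islr2* for *Stmn4* (0.59), *Snrpa1* for *Tubb3* (0.63), *Rtf1* for *Elavl3* (0.65), *Bzw2* for *Elavl4* (0.75), *Col1a2* for *Gap43* (0.70), *Dek* for *Nefl* (0.81) and *Mtap1b* for *Nefm* (0.77). *Stmn1*, with few reads, reached 0.34 with *Abat*. The gene with the highest median rho over the members was *Ercc5* (0.42), which is on no list of neuronal genes used here.

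The mother's genotype was tested by the Mann-Whitney U test of the study's methods over 89 and 65 N2 embryos. It called 5.03% of 9733 genes and 0 of 9 members. *Tubb3* had a median of 175 RPM (23.7 to 789) with B6 mothers and 148 RPM (24.2 to 493) with F1 mothers, and an unadjusted p = 0.0364 that became 1 after Bonferroni adjustment. *Nefl* had medians of 45.7 RPM (8.61 to 445) and 34.9 RPM (14.8 to 345), and *Stmn4* of 158 RPM (82.2 to 515) and 159 RPM (60.2 to 255). The ranges of the mothers overlapped for every member. Lane and mother cannot be told apart in this test.

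Allele-specific expression (ASE) was measured from votes, in which reads over SNPs count for B6 or Cast, and given as the B6 allele fraction (BAF). *Stmn2* had no votes, and *Stmn3* (127 votes in F1 embryos) and *Elavl4* (211) had too few in the N2 embryos. Among the 7 members with at least 20 votes in each cross, only *Tubb3* was called, by the paired test of the study's methods. It had 5548 B6 and 9425 Cast votes over 85 embryos, a BAF of 0.371 or 1.70 times as many Cast as B6 votes (Bonferroni-adjusted p = 3.38e-05). Of 9084 genes 18.9% were called.

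*Stmn4*, with the most votes, had a BAF of 0.499 (9806 B6 and 9861 Cast votes), and *Nefm* one of 0.479. *Elavl3* had a BAF of 0.535 with an unadjusted p = 0.000230, which was 1 after adjustment. The others were *Gap43* (0.475), *Nefl* (0.559, on 633 votes) and *Stmn1* (0.442, on 353 votes), each with an adjusted p of 1. The value of *Stmn1* joins crosses that differed, with a BAF of 0.253 (95% Wilson interval 0.169 to 0.362) in B6 × Cast and of 0.562 (0.470 to 0.651) in Cast × B6, a difference that was not tested over embryos. In the F1 embryos alone the BAF of *Tubb3* was 0.393 (95% Wilson interval 0.382 to 0.404, 8037 votes) and the paired test did not pass (adjusted p = 1). In the heterozygous N2 embryos alone it was 0.345 (0.334 to 0.356, 6936 votes) and the test passed. These intervals cover counting error only.

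*Tubb3* varied between F1 litters. In Cast × B6 litter 1 its BAF was 0.319, 0.312, 0.354 and 0.293, and in litter 2 of the same cross 0.469, 0.544, 0.503 and 0.454. In B6 × Cast it was 0.415, 0.478, 0.462, 0.370 and 0.423 in litter 5 and 0.362, 0.435 and 0.422 in litter 3. The Cast × B6 litters did not overlap, and the B6 × Cast embryos lay above litter 1 and partly within the range of litter 2. Over the Cast × B6 litters the B6 votes per 1000000 reads were 6.29 ± 1.39 in litter 1 and 9.03 ± 0.511 in litter 2 (SD, n = 4 each), and the Cast votes 13.4 ± 2.93 and 9.36 ± 1.32. *Stmn4* also did not overlap between these litters, at 0.462 to 0.478 and 0.486 to 0.530. Of 5628 genes 7.80% did not overlap, and 36 had a gap in mean BAF as large as that of *Tubb3*. Litter, stage and sequencer cannot be told apart in this gap.

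Parent of origin was tested by comparing the BAF of the 8 embryos of each F1 cross, with an exact two-sided permutation test over genes with 20 votes in every embryo. It called 1.69% of 5628 genes and 0 of the 4 members tested. *Tubb3* had a BAF of 0.421 ± 0.0402 with B6 mothers and of 0.406 ± 0.0977 with Cast mothers (SD, n = 8 each, exact permutation p = 0.697), and *Stmn4* one of 0.503 ± 0.0219 and of 0.490 ± 0.0252 (exact permutation p = 0.276). *Elavl3* (exact permutation p = 0.844) and *Nefm* (exact permutation p = 0.528) did not pass either. The smallest p this design allows is 0.000155. The permutations treat embryos of a litter as independent, and each cross held only 2 litters. The crosses also differed in stage, with 48 to 63 somites in B6 × Cast and 41 to 48 in Cast × B6. Parent of origin, litter and stage are thus not fully separated in this test.

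Across heterozygous N2 embryos, the BAF was compared with somite number by Spearman's correlation. It called 0.299% of 3342 genes and 0 of the 4 members. The rho was 0.072 for *Tubb3* (60 embryos, unadjusted p = 0.584), 0.078 for *Stmn4* (75 embryos, p = 0.507), -0.15 for *Nefm* (45 embryos, p = 0.323) and -0.13 for *Elavl3* (23 embryos, p = 0.545).

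The level of each gene was also compared between N2 embryos B6/Cast and B6/B6 at the gene itself. *Tubb3* was higher with a Cast allele. In 63 B6/Cast embryos it had 43.2 RPM at the lowest, a median of 244 RPM and 789 RPM at the highest, and in 84 B6/B6 embryos 23.7, 130 and 325 RPM. With lane and somite number regressed out the difference was 0.57 on the log2 scale, or 1.48-fold (rank-sum test, adjusted p = 3.69e-09). The median was higher with the Cast allele in 12 of the 13 lanes that held at least 2 embryos of each genotype. The ratio of medians in these lanes ran from 0.963 to 2.41, with a median of 1.65. *Gap43*, which did not pass the test, was also higher in 12 of 14 lanes, and *Stmn4* was higher in 2 of 14. If the B6 allele gave as many reads as 1 allele of a B6/B6 embryo, the BAF of 0.345 above would give 1.45-fold the level of B6/B6. Whether the B6 allele did so was not tested.

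Of 9762 genes 18.2% were called by this test, and 1 of 9 members. *Stmn4* had medians of 153 RPM (60.2 to 338) in B6/Cast and 165 RPM (82.2 to 515) in B6/B6 embryos, a difference of -0.039 (adjusted p = 0.533). The largest values among the others were 0.16 for *Gap43* (adjusted p = 0.238), 0.15 for *Elavl4* (adjusted p = 0.228) and 0.099 for *Nefm* (adjusted p = 0.170). *Tubb3* was called in this comparison under all 4 alternatives tried. With its own genotype as a term, the slope of *Tubb3* on somite number was 0.038 (edgeR adjusted p = 0.164), and those of *Stmn3* and *Stmn4* were 0.060 each. In embryos heterozygous at *Tubb3* alone *Stmn3* lost its call (0.048, edgeR adjusted p = 0.448), and in B6/B6 embryos alone *Stmn4* did (0.045, edgeR adjusted p = 0.130).

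**Figure D5:**
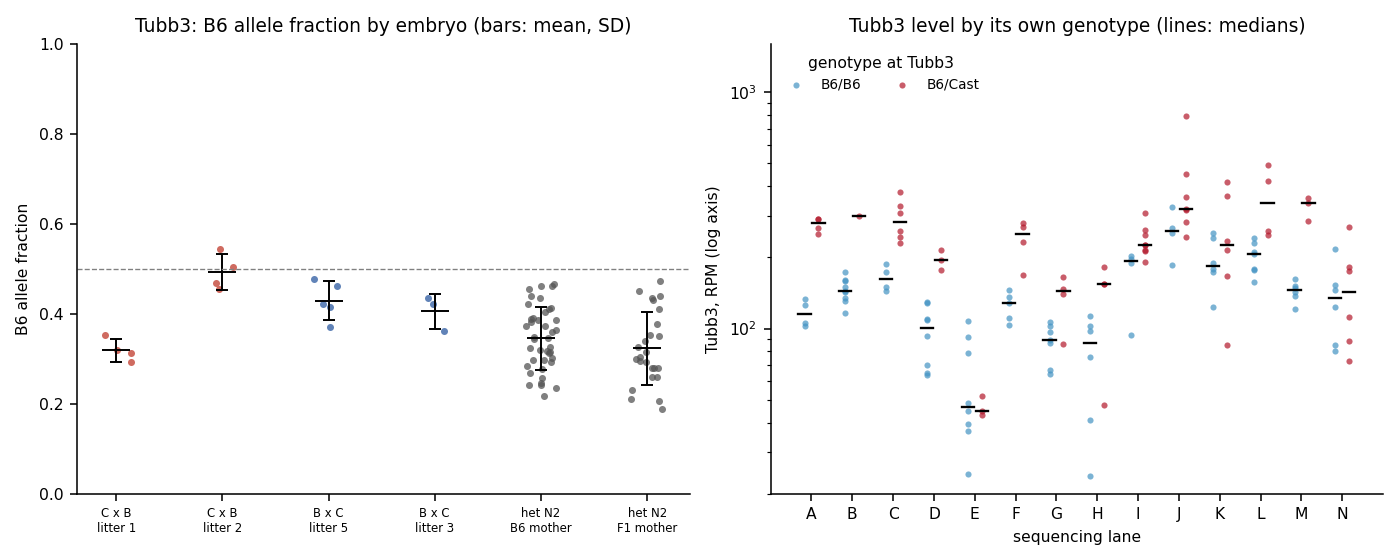
Left, B6 allele fraction of *Tubb3* in each F1 embryo by litter and in each heterozygous N2 embryo with at least 20 votes by mother, with mean and SD, where Cast × B6 litter 1 (0.293 to 0.354) and litter 2 (0.454 to 0.544) do not overlap. Right, *Tubb3* level (RPM, log axis) by lane in B6/B6 (blue) and B6/Cast (red) embryos with medians as lines, where the red median is the higher in most lanes.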

How the data were processed

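3SEQ reads of 16 F1 and 154 N2 whole embryos were used. Per the labels and the paper's methods, the authors trimmed poly(A) ends, mapped reads with Bowtie2 to mm9 and to a Cast genome made from SNPs, discarded reads with a near-equal second-best hit, and deposited raw counts of reads on RefSeq exons per gene. They also deposited allele votes, estimated counts (expected counts) that need not be whole, and a genotype score per gene and embryo, read here as B6/B6, B6/Cast or not called from the votes under each code. The 2 sequencing runs of an F1 embryo have 1 column, taken as their sum. Of the 168 N2 columns, 8 have labels that name no embryo and 6 matched embryos have no genotype, and these 14 were left out of the comparisons, except that all 160 matched embryos entered 1 alternative.

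Counts were divided by the total on genes to give RPM, and the filter was a mean of 5 RPM. The members, lists and tests were chosen with earlier results of these data known. Slopes and litters were tested with edgeR 4.0.16 (TMM, quasi-likelihood) in R 4.3.3, with Benjamini-Hochberg adjustment over all genes and a threshold of 0.05. DESeq2 1.42.0 and limma 3.58.1 were alternatives. Spearman's correlation, the Mann-Whitney U test (Bonferroni, 0.01) and the paired ASE test (Bonferroni, 0.01, BAF outside 0.45 to 0.55) followed the study's methods, and used SciPy 1.17.1. The rank-sum test (Benjamini-Hochberg, 0.01) differs from the study's eQTL test, since it used only the gene's own genotype and log2(RPM + 1) with lane and somite number regressed out, without PEER factors or sex. BAF against somite number had a threshold of 0.1 and parent of origin one of 0.05. The pseudocount was 1 RPM. At the median N2 depth of 2297774 reads, genes with low counts such as *Stmn1* rest on few reads. How far the discarding of reads with a near-equal second-best hit lowered the counts of *Stmn1* was not tested. The Wilson intervals of the BAF cover counting error only. Named genes were all members, the steepest and shallowest called genes of 4 lists, and the closest genes by rho, of which the 10 closest to the members as a group are not all reported here. The other alternatives changed normalization, filters, lane, litter, flowcell, mother, stage and depth. The main tests were tried on simulated data that held no lane or litter effects. Those trials therefore do not show how lane or litter bears on the calls.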

Additional observations from a re-analysis of the deposited data

Results flagged for a closer look

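Within the 3 F1 litters of 4 or 5 embryos, the highest and lowest embryos were compared with the rest of their litter for the RPM of each member and for the BAF of *Stmn4*, *Tubb3*, *Elavl3* and *Nefm*. B6 × Cast litter 3, with 3 embryos, was not compared in this way. In 3 of 42 such groups a single embryo stood apart beyond Dixon's 95% critical value, and chance alone marks about 1 in 20 groups. All 3 were in B6 × Cast litter 5. Embryo 6 had 263.9 RPM of *Elavl3* (298 to 305 RPM in the other 4) and 8.18 RPM of *Stmn1* (11.7 to 13.1 RPM in the other 4). Embryo 4 had a BAF of 0.452 for *Elavl3*, against 0.548 to 0.560 in the other 4.

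The BAF of *Stmn4* lay above 0.5 in all 3 embryos of B6 × Cast litter 3 (0.506 to 0.540) and below 0.5 in all 4 embryos of Cast × B6 litter 1 (0.462 to 0.478). The means differed by 0.0527, and this difference was not tested. The other litters lay on both sides of 0.5, and the exact permutation test between the crosses did not pass (p = 0.276).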

How the results depend on the processing

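Of 1085 values of single members under an alternative, 1019 kept their side of the threshold, and in 67 of these the sign differed while neither value passed. The number of genes called by the slope on somite number was 1003 and became 3568 without lane, 164 with litter, 557 and 124 in embryos of B6 or F1 mothers, 296 in flowcell 2, and 157 and 259 in embryos B6/Cast or B6/B6 at *Tubb3* (a split chosen after seeing the data, like the *Tubb3* term and the coexpression without lane J or without shallow embryos). Without single lanes it ranged from 734 to 1320. The slope of *Vamp2* was -0.0017 with litter. Without lane, *Tubb3* (0.115) and *Elavl3* (0.048) passed. For the interaction with mother, 4720 genes were called without lane and 3 at 46 to 52 somites, and without lane the signs turned for *Nefm* (0.111), *Stmn2* (0.0593), *Stmn4* (-0.0771) and *Tubb3* (0.117). Spearman's correlation called 1150 genes with lane regressed out, 174 over litter means and 5162 with B6 mothers alone, and *Elavl4* (0.328) and *Stmn2* (0.430) turned sign with F1 mothers alone. For the mother's genotype, 490 genes were called (417 higher and 73 lower with F1 than with B6 mothers). The number became 917 (583 and 334) with edgeR in place of the rank test and flowcell and somite number as terms. It was 2077 with Benjamini-Hochberg, and 225 and 26 within flowcells 1 and 2. Over litter means and over lane means 0 genes were called (1279 and 399 at an unadjusted p under 0.05, Mann-Whitney). With 29 litter means, or 9 and 6 lane means, the smallest p that test can give misses the Bonferroni threshold. No gene could pass there, so these 0 calls do not bear on the mother's genotype. ASE was called for 1085 genes in F1 embryos and 2889 with Benjamini-Hochberg. The F1 crosses differed in BAF at 0 genes in stage-matched litters (exact permutation, 623 at an unadjusted p under 0.05). That test has only 126 permutations, and its smallest p could pass only if more genes than these 623 shared it. The 0 calls therefore do not show whether the crosses differ at matched stage. In heterozygous N2 embryos 46 genes differed in BAF between the mothers. BAF against somite number called 17 genes at 10 votes, 2 with lane regressed out, and 63 and 2 in embryos of B6 and F1 mothers. The comparison by own genotype called 1087 genes with neither lane nor stage regressed out. Without single F1 embryos, 585 to 1884 genes were called between the B6 × Cast litters, 841 to 1980 between the stage-matched litters and 2540 to 4014 between the Cast × B6 litters. The median rho of the members' pairs was 0.26 with nothing regressed out and 0.087 after TMM scaling. The causes of these changes were not tested. No paired analysis was possible because replicate numbers name embryos in accession order only.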
